A study of Mus musculus with 9 samples.

Results

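Matrix metalloproteinases (MMPs) and tissue inhibitors of metalloproteinases (TIMPs) were measured in stably transfected mouse pancreatic cancer cells. The family was taken as 10 genes, Mmp2, Mmp3, Mmp9, Mmp10, Mmp11, Mmp13, Mmp14, Timp1, Timp2 and Timp3, out of 18193 genes with a probe set of their own. Every probe set whose only annotated gene was a member was used, which gave 22 of 45037 probe sets. The cells were the line 170#3, of mixed C57BL6 x FVB x 129Sv background, grown in monolayer in serum-containing medium. One group carried a stable control transfection, one expressed beta-catenin and one expressed ICAT, which keeps beta-catenin from joining TCF factors on DNA. Each group had 3 arrays from biological replicates, 9 in all. The labels give no vector, promoter or age, and they do not say whether a transfected line is a clone or a pool, so a p-value here speaks of the spread among these arrays alone, which may be technical.

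MMPs are zinc-dependent endopeptidases that cut collagens, other matrix proteins and many cell-surface proteins, and they are made as inactive proenzymes. TIMPs are small secreted proteins that block the active site, so net activity depends on proteases, their activators and inhibitors together. In pancreatic cancer both tumour cells and stroma make them, and several MMP genes are known targets of AP-1 and, in some cells, of TCF and beta-catenin.

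Values are log2 expression per probe set as the authors deposited them. A gene's main probe set is its brightest over the 9 arrays. A difference was called when limma gave an adjusted p under 0.05 over all 45037 probe sets, and "rose", "fell" and "called" refer to that test. The arrays had medians between 6.21 and 6.29, and the lowest correlation within a group was 0.9941. Replicate spread was widest in ICAT cells, with a median SD over the member probe sets of 0.165 against 0.0537 in control and 0.06 in beta-catenin cells. ICAT replicate 1 was the highest of the 3 ICAT arrays in 19 of the 22 member probe sets and in 14275 of all 45037. By main probe set the transfected genes were not called in either line by limma (at an unadjusted p of 0.05 the Ctnnb1 increase passed in both lines). Whether these probe sets read the transfected sequences was not tested. Among epithelial markers Cdh1 was below 5 on every array (highest 3.56). In control cells Krt7 averaged 5, Krt19 5.28, Krt8 6.45, Krt18 7.23 and Epcam 7.48. Fibroblast markers averaged from 4.5 (Lum) to 12.7 (Col3a1) in the same cells. The immune marker Ptprc had a highest value of 4.5 and the endothelial marker Cdh5 of 4.72. Apart from Itgam (highest 4.19), the other markers of these lists were brighter. Control means ran from 4.12 (Itgam) to 7.25 (Csf1r) for immune and from 4.64 (Cdh5) to 7.41 (Kdr) for endothelial markers.

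The largest changes were decreases of 3 neighbouring protease genes, Mmp3, Mmp10 and Mmp13, in beta-catenin cells. Their upstream sequences are shown first because these genes lie in a single cluster on mouse chromosome 9 and fell together. Each sequence is the 250 bases before the RefSeq start, 5′ to 3′ on the + strand of GRCm38.p6, with matches to the AP-1 motif TGANTCA in capitals. The sequences are at chr9:7445572-7445821 for Mmp3, chr9:7502092-7502341 for Mmp10 and chr9:7272264-7272513 for Mmp13.
Mmp3: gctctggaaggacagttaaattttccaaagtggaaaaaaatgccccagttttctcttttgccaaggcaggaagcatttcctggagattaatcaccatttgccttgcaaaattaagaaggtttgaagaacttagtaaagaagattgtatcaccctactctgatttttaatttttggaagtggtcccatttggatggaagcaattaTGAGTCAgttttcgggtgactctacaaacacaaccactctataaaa
Mmp10: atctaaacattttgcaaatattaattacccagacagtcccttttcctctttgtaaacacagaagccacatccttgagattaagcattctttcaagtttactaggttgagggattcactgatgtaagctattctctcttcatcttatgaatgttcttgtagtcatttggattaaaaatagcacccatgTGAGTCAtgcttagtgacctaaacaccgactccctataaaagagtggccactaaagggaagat
Mmp13: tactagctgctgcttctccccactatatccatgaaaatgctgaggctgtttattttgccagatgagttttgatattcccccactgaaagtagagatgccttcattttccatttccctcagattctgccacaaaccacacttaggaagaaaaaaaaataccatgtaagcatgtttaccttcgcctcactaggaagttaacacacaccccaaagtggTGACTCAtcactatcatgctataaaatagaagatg

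Each of these promoters held 1 AP-1 match, which begins at base -46 from the start in Mmp3, at -63 in Mmp10 and at -35 in Mmp13. The search covered both strands of a window of 300 bases, from 250 before to 50 after the start. Promoters of 8 of the 10 members were matched by symbol in the RefSeq table, and the AP-1 motif was in 3 of them, those shown. Of all 32851 promoters of that length 7.81 percent held it. The ETS motif was searched as ACCGGAA, with ACAGGAA as another form and the letters AGGAAGT as a further one. It was in 2 member promoters, those of Mmp13 and Timp1, against 19.2 percent of all, and the Timp1 matches that begin at -177 and -175 overlap each other. The TCF/LEF motif, searched as CTTTGAA and in the other form CTTTGTT, was in 0 of the 8, against 10.6 percent of all. A match is a description of letters and not a shown binding site.

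In beta-catenin cells 16 of the 22 member probe sets rose and 3 fell. Among all probe sets 22.1 percent were called, 11.9 percent higher and 10.2 percent lower. By main probe set 7 of the 10 genes rose and 3 fell, against 26.9 percent of all genes called. At 2-fold or more 6 of the 10 were called, against 3.88 percent of all genes. The median log2 difference of the 10 genes was 0.57, beside -0.03 over all genes. Arrays of the groups did not overlap in 20 of the 22 probe sets, and in 40.8 percent of all. In ICAT cells 15 of the 22 probe sets rose and the other 7 were not called, against 23.1 percent called among all, 11.1 percent higher and 12 percent lower. By main probe set 6 of the 10 genes rose, against 28.6 percent of all genes called, with a median of 0.54 beside -0.01 over all genes. At 2-fold or more 3 of the 10 were called, against 2.47 percent of all genes. Arrays did not overlap in 16 of the 22 probe sets, and in 35.3 percent of all. Both comparisons share the control arrays, and probe sets of a gene are not independent. The members were chosen with earlier results of these data known, so the member counts, here and between the lines, are descriptions only.

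**Figure D1:**
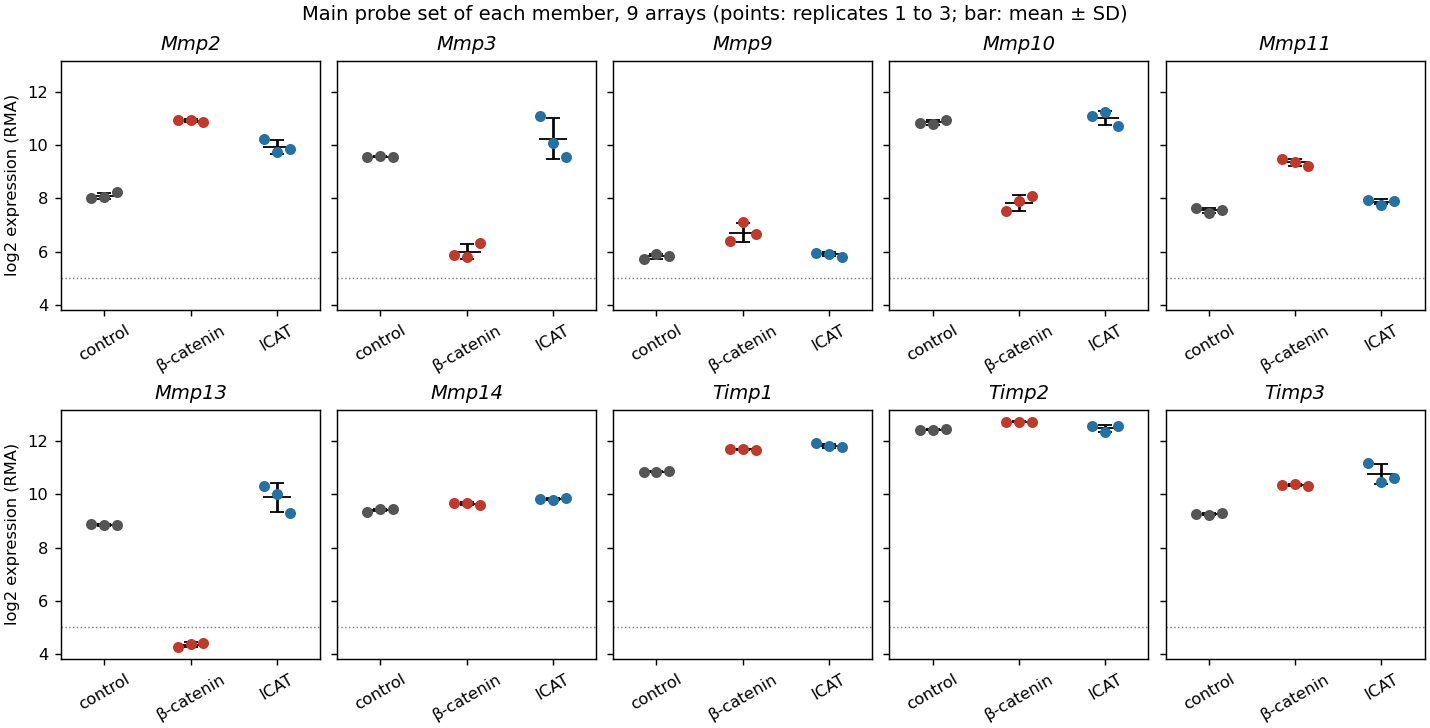
Log2 expression (RMA) of the main probe set of each of the 10 genes on the 9 arrays. Points are replicates 1 to 3 from left to right, bars are the mean ± SD (n = 3) and the dotted line marks log2 5. Mmp3, Mmp10 and Mmp13 lie far below control on the beta-catenin arrays, Mmp2 and Mmp11 far above, and the TIMP genes are higher with a narrower range.

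The stromelysin gene Mmp3, whose product cuts many matrix proteins and activates other proenzymes, stood at 9.55, 9.58 and 9.57 on the control arrays. On the beta-catenin arrays it read 5.88, 5.81 and 6.31, and on the ICAT arrays 11.08, 10.07 and 9.56. The beta-catenin arrays lay below all others, whereas ICAT replicate 3 lay among the controls and replicates 1 and 2 above them. Mmp3 fell 11.8-fold in beta-catenin cells (log2 difference -3.57 ± 0.28, SE; adjusted p = 1.25e-06). In ICAT cells the difference of 0.67 was not called (95% interval 0.06 to 1.28; adjusted p = 0.116). It was 0.25 without ICAT replicate 1 (adjusted p = 0.355) and 1.01 and called without ICAT replicate 3 (adjusted p = 0.0114).

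Mmp10 encodes the other stromelysin of the cluster, close in substrate range to the Mmp3 product. Its control arrays read 10.82, 10.80 and 10.96, its beta-catenin arrays 7.52, 7.91 and 8.10, and its ICAT arrays 11.09, 11.23 and 10.71. Again the beta-catenin arrays stood apart and the ICAT arrays overlapped the controls. Mmp10 fell 8.1-fold in beta-catenin cells (log2 difference -3.02 ± 0.149, SE; adjusted p = 2.22e-08). In ICAT cells the difference was 0.15 and not called (95% interval -0.17 to 0.47; adjusted p = 0.578).

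Mmp13 is an interstitial collagenase gene. Its control arrays read 8.88, 8.83 and 8.83, the ICAT arrays 10.32, 10.02 and 9.29, and the beta-catenin arrays 4.25, 4.39 and 4.40. None of the 3 groups overlapped another. The beta-catenin values lay under log2 5, a chosen limit below which values have no sure order, so the decrease is at least 14.4-fold (adjusted p = 5.72e-09). Because its low values have no sure order, Mmp13 is given no rank; by main probe set 10 of 18193 genes had a larger measured decrease than Mmp3 and 17 a larger one than Mmp10. In ICAT cells Mmp13 rose 2.04-fold (log2 difference 1.03 ± 0.188, SE; adjusted p = 0.00147), and by 0.81 on the log2 scale without ICAT replicate 1.

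Set directly against ICAT cells, beta-catenin cells had 18.8-fold less Mmp3 (adjusted p = 3.97e-07), 8.98-fold less Mmp10 (adjusted p = 2.34e-08) and at least 29.4-fold less Mmp13 (adjusted p = 1.47e-09). Averaged over the 3 genes after subtracting each control mean, the beta-catenin arrays stood at -3.88, -3.72 and -3.49, values that take the Mmp13 readings under log2 5 as measured and so are not exact. The ICAT arrays stood at 1.07, 0.68 and 0.09.

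The RefSeq order of the protein-coding genes along the cluster was Mmp13, Mmp12, Mmp1b, Mmp3, Mmp1a, Mmp10, Mmp8, Mmp27, Mmp20 and Mmp7, with Dync2h1 and Dcun1d5 before and Tmem123, Birc2, Birc3 and Yap1 after. The genes between the strongly lowered ones were dim. Mmp12 reached at most 4.22 on any array and was not called in either line. Mmp1b, whose product is related to interstitial collagenase, had means of 5.19 on control, 3.90 on beta-catenin and 4.28 on ICAT arrays. It fell in both, by at least 1.14-fold with values under 5 set to 5 (adjusted p = 9.87e-07 and 3.32e-05). Mmp1a was called lower in beta-catenin cells with every value under 5 (adjusted p = 0.00561). Beyond the cluster Birc3, an inhibitor of apoptosis gene, rose 2.05-fold in beta-catenin and 1.84-fold in ICAT cells, and Birc2 rose 1.61-fold and 1.26-fold. Tmem123 rose in beta-catenin cells (log2 difference 0.28, adjusted p = 0.0149), and Dcun1d5 fell 1.2-fold in ICAT cells (adjusted p = 0.0115). Yap1 averaged 10.77 in control and in beta-catenin cells and 10.96 in ICAT cells. It was not called in either line (adjusted p = 0.963 and 0.072).

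**Figure D2:**
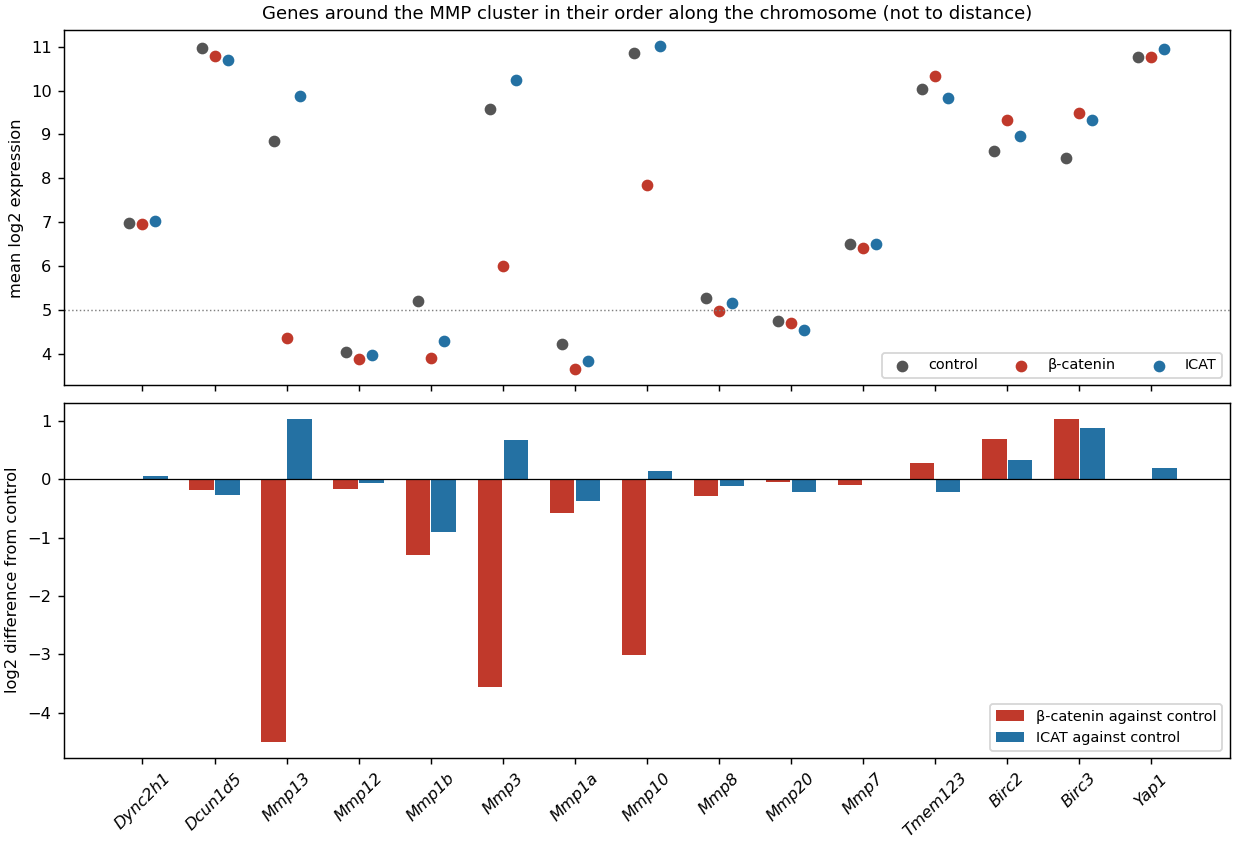
Genes of the MMP cluster and its flanks in RefSeq order, evenly spaced and not to distance; Mmp27 had no probe set of its own here. The upper panel shows group means (log2 expression, main probe set, dotted line at log2 5) and the lower panel the log2 difference of each line from control. Mmp13, Mmp3 and Mmp10 have the 3 deepest beta-catenin bars, at measured differences of -4.50, -3.57 and -3.02, and genes between and beside them have much shorter ones.

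The genes most like this trio over the 9 arrays were found by the root mean square difference between profiles, each minus its control mean, among 16330 named genes. They were Csgalnact1, a chondroitin sulfate synthesis gene, at 0.489, Bhlhb9 at 0.564, Etv5 at 0.594, Arhgap6 at 0.623, the lipase gene Pla2g7 at 0.63 and the protocadherin gene Pcdh17 at 0.632. On the same measure Mmp3 itself lay at 0.192, Mmp10 at 0.503 and Mmp13 at 0.528. The profile of the trio was the mean of these genes, so their nearness to it is in part built in. Csgalnact1 had means of 9.07 on control, 5.79 on beta-catenin and 9.26 on ICAT arrays. Etv5, an ETS factor gene, averaged 9.41, 6.56 and 9.75. These are descriptions of likeness over arrays that fall into 3 groups, and they too take readings under log2 5 as measured.

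The gelatinases went the other way. Mmp2 encodes the gelatinase that membrane-bound MMP14 activates with the help of TIMP2. Its main probe set read 8.01, 8.06 and 8.24 on the control arrays, 10.96, 10.95 and 10.86 on the beta-catenin arrays and 10.22, 9.73 and 9.84 on the ICAT arrays. The order was control, ICAT, beta-catenin, with no overlap between any pair of groups. Mmp2 rose 7.07-fold in beta-catenin cells (log2 difference 2.82 ± 0.114, SE; adjusted p = 4.09e-09) and 3.56-fold in ICAT cells (adjusted p = 5.46e-07). Beta-catenin cells had 1.99-fold more than ICAT cells (adjusted p = 3.84e-05). The second Mmp2 probe set gave 6.48-fold, 3.18-fold and 2.04-fold. Only 40 of 18193 genes had a larger increase in beta-catenin cells and 92 in ICAT cells.

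Mmp9, the other gelatinase gene, was dim in control cells, at 5.73, 5.91 and 5.85. It read 6.40, 7.10 and 6.68 on the beta-catenin arrays and 5.95, 5.93 and 5.81 on the ICAT arrays. The beta-catenin arrays were above all others, and ICAT and control arrays overlapped. Mmp9 rose 1.86-fold with beta-catenin (adjusted p = 0.000397) and 1.87-fold by its second probe set (adjusted p = 8.87e-05). Neither probe set was called in ICAT cells (differences 0.07 and 0.15; adjusted p = 0.811 and 0.427), and beta-catenin cells had 1.77-fold more than ICAT cells (adjusted p = 0.000671).

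Mmp11, an MMP whose proenzyme is cut by furin inside the cell, had control arrays at 7.63, 7.47 and 7.56. The beta-catenin arrays stood at 9.48, 9.35 and 9.22 and the ICAT arrays at 7.94, 7.76 and 7.90, so the 3 groups were fully separated. Mmp11 rose 3.47-fold in beta-catenin cells (log2 difference 1.79 ± 0.085, SE; adjusted p = 1.57e-08). It rose 1.24-fold in ICAT cells (adjusted p = 0.0168), a call lost without control replicate 2 (adjusted p = 0.0764), control replicate 3 (0.0521) or ICAT replicate 1 (0.0576). Between the lines the difference was 2.79-fold (adjusted p = 1.24e-07).

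Mmp14 encodes the membrane-bound collagenase and activator of pro-MMP2, and its changes were small. Its main probe set read 9.35, 9.44 and 9.44 in control, 9.69, 9.69 and 9.59 in beta-catenin and 9.84, 9.78 and 9.87 in ICAT cells. The 3 groups did not overlap, although they lay close together. Mmp14 rose 1.34-fold in ICAT cells (adjusted p = 0.000644) and 1.18-fold with beta-catenin (adjusted p = 0.0217). The latter increase was no longer called without control replicate 1 (adjusted p = 0.0959), control replicate 3 (0.0524), beta-catenin replicate 1 (0.0683) or beta-catenin replicate 2 (0.0857). Of its other probe sets, neither was called in beta-catenin cells (differences 0.16 and 0.08), and 1 was called in ICAT cells (1.28-fold, adjusted p = 0.0017).

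All 3 TIMP genes rose in beta-catenin cells by main probe set, and Timp1 and Timp3 also rose in ICAT cells. Timp1, which encodes a secreted inhibitor of most MMPs, read 10.84, 10.85 and 10.86 in control cells. The beta-catenin arrays read 11.69, 11.70 and 11.68 and the ICAT arrays 11.91, 11.82 and 11.76, each group apart from the others. Timp1 rose 1.79-fold in beta-catenin cells (log2 difference 0.84 ± 0.0659, SE; adjusted p = 1.2e-06) and 1.97-fold in ICAT cells (adjusted p = 9.72e-07). The difference between the lines, -0.14 for beta-catenin minus ICAT, was not called (95% interval -0.28 to 0.01; adjusted p = 0.163).

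Timp3, whose product stays bound to the matrix and also inhibits ADAM proteases, had 4 probe sets that rose in both lines. By the main one control arrays read 9.24, 9.23 and 9.31, beta-catenin arrays 10.33, 10.40 and 10.32 and ICAT arrays 11.19, 10.47 and 10.61. The groups did not overlap, and ICAT replicate 1 was the highest. Timp3 rose 2.13-fold with beta-catenin (adjusted p = 9.64e-05) and 2.82-fold in ICAT cells (adjusted p = 1.22e-05). Over the 4 probe sets the log2 difference ran from 0.81 to 1.11 in beta-catenin and from 1.25 to 1.49 in ICAT cells. Beta-catenin cells were lower than ICAT cells by 3 of the 4 (differences -0.36, -0.43 and -0.43), and the main one was not called (-0.40, adjusted p = 0.0544). Without ICAT replicate 1 these differences were -0.19 to -0.25, among which that of -0.24 was still called.

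Timp2 encodes the inhibitor that also bridges MMP14 and pro-MMP2, and its probe sets disagreed in size. The main one, at a mean brighter than 98.8 percent of probe sets, read 12.40, 12.43 and 12.44 in control, 12.72, 12.73 and 12.70 in beta-catenin and 12.55, 12.33 and 12.55 in ICAT cells. By it Timp2 rose 1.23-fold with beta-catenin (adjusted p = 0.0128; 0.0502 without control replicate 1), while the ICAT difference of 0.05 was not called (adjusted p = 0.711). The 4 next brightest rose in both lines, by 1.76-fold to 1.94-fold in beta-catenin cells and by 1.58-fold to 1.75-fold in ICAT cells. On them no ICAT or beta-catenin array reached down to the controls. The sixth lay under log2 5 on all arrays (highest 4.58), the 1 member probe set of 22 that did not reach 5 on 3 arrays, and was not called.

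**Figure D3:**
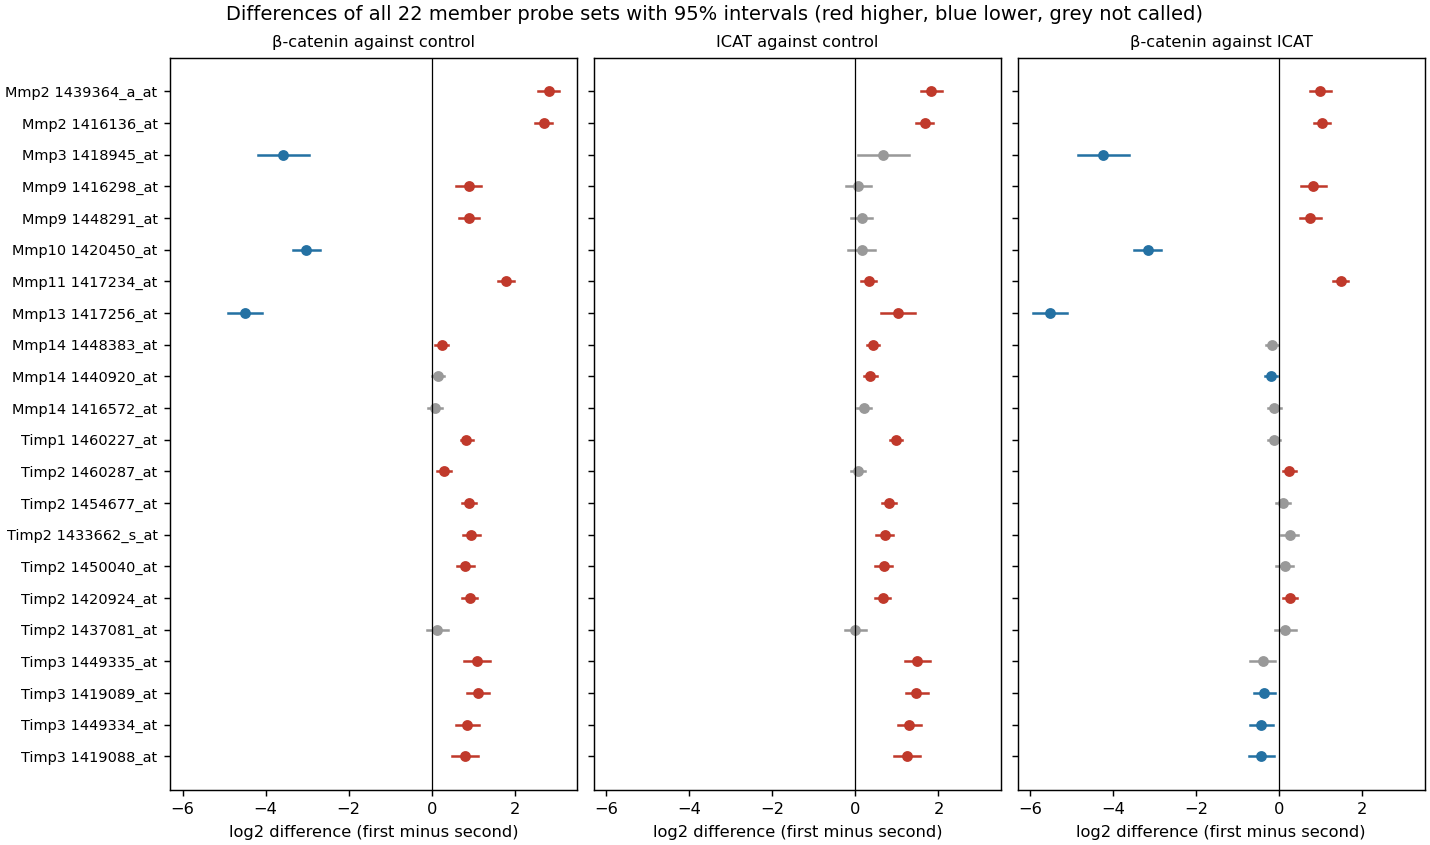
Log2 difference (first group minus second) of all 22 member probe sets in the 3 comparisons, with 95% intervals from limma; red is called higher, blue called lower and grey not called. In beta-catenin cells Mmp3, Mmp10 and Mmp13 are the blue points at -3.57, -3.02 and -4.50, in ICAT cells the called points are all to the right of 0, and probe sets of a gene lie close together apart from those of Timp2.

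In the direct comparison of the lines 7 member probe sets were higher and 7 lower in beta-catenin cells, against 26 percent of all probe sets called, 14.4 percent higher and 11.6 percent lower. By main probe set 4 of the 10 genes were higher and 3 lower, against 31.6 percent of all genes called, 17.6 percent higher and 14 percent lower. At 2-fold or more 4 were called, against 3.35 percent of all genes. Arrays did not overlap in 19 of the 22, and in 36.9 percent of all. Mmp2, Mmp9 and Mmp11 were higher and Mmp3, Mmp10 and Mmp13 lower, each by every probe set it had. The calls for Mmp14, Timp2 and Timp3 were small, at most 1.35-fold, and the member count fell to 9, 9 and 8 without beta-catenin replicate 1, 2 and 3. With each of the 9 arrays left out in turn, the Mmp14 call held in 1 fit. The call of the main Timp2 probe set held in 4 and its other call in 5, and the Timp3 calls held in 2, 5 and 6.

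Some cell type markers also changed in this line, which was grown in monolayer. Over all genes 14.6 percent were called higher and 14 percent lower in ICAT cells. In beta-catenin cells these shares were 15.3 and 11.6 percent. In ICAT cells limma called 7 of 11 fibroblast markers higher and did not call the other 4. The mean level of the list ran from 8.36 to 8.61 on the ICAT arrays against 7.54 to 7.59 on the control arrays. Pdgfra was 4.04-fold and Postn 3.87-fold higher, while Lum (highest 4.55) and Fap (highest 4.81) stayed under 5 on all arrays. In beta-catenin cells 3 of the 11 rose and 2 fell, with the mean level between 7.68 and 7.88. Pdgfra was among those that rose, by 4.11-fold, and was not called between the lines. Col1a2 fell 2.63-fold in beta-catenin cells and rose 2.73-fold in ICAT cells. Of 6 epithelial markers 2 rose in ICAT cells, Krt8 and Krt18 by 1.85-fold and 2.43-fold, and the list mean lay at 6.07 to 6.37 against 5.79 to 5.84. In beta-catenin cells that list had 0 calls by limma and 0 at an unadjusted p of 0.05, with a mean level of 5.69 to 5.78. Immune markers had mean levels of 5.87 to 5.88 on control, 5.64 to 5.74 on beta-catenin and 5.75 to 5.92 on ICAT arrays, and Cd68 was the 1 of 7 called, lower in beta-catenin cells (in ICAT cells limma called 0, and 1 passed an unadjusted p of 0.05). Endothelial markers had 0 of 5 called in either line by limma (1 in beta-catenin and 0 in ICAT cells at an unadjusted p of 0.05). Their mean levels were 5.34 to 5.51 on control, 5.32 to 5.42 on beta-catenin and 5.33 to 5.41 on ICAT arrays. The part of these shifts in the MMP and TIMP values was not tested, and in bulk RNA fewer cells of a type cannot be told apart from less RNA per cell.

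Further MMP and TIMP genes with a probe set numbered 12. In beta-catenin cells 1 rose and 2 fell (median -0.08), and in ICAT cells 1 rose and 2 fell (median -0.09), against 15.3 and 11.6 percent of all genes called higher and lower in the first and 14.6 and 14 percent in the second, so the calls were about as frequent as over all genes. Mmp16, a membrane-type MMP gene, went in opposite directions. Its control mean was 7.22 ± 0.0109 (SD, n = 3), and it rose to 7.89 ± 0.105 in beta-catenin cells (adjusted p = 0.00162) and fell to 6.74 ± 0.306 in ICAT cells (adjusted p = 0.0119). The lines differed by 2.22-fold (adjusted p = 2.3e-05). Mmp19 rose 1.26-fold in ICAT cells (adjusted p = 0.0287).

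A broad list for plasminogen activation, proenzyme activation and MMP control held 18 genes with a probe set. Of these 8 fell and 2 rose in beta-catenin cells (median -0.18), where 11.6 percent of all genes were called lower and 15.3 percent higher. In ICAT cells 7 rose and 3 fell (median 0.05), beside 14.6 percent of all genes called higher and 14 percent lower. Whether the list differs from other genes was not tested. Plau, the gene of urokinase, which turns plasminogen into plasmin, had means of 6.71 ± 0.201 on control, 5.22 ± 0.112 on beta-catenin and 5.72 ± 0.125 on ICAT arrays. The decrease was 2.82-fold with beta-catenin (adjusted p = 5.37e-07) and 2-fold with ICAT (adjusted p = 2.94e-05). Its receptor gene Plaur, named after its values were seen, fell 1.87-fold and 1.70-fold. Reck, which encodes a membrane-anchored inhibitor of MMPs, rose 1.94-fold with beta-catenin (adjusted p = 0.000103) and 3.49-fold in ICAT cells (adjusted p = 1.22e-06). The serine protease gene Prss23 rose 6.29-fold and 2.25-fold, and the cathepsin gene Ctsl fell 2.3-fold in beta-catenin cells. Lrp1, a receptor that clears MMPs and their complexes and was also named after its values were seen, fell 2.29-fold in beta-catenin cells and rose 1.47-fold in ICAT cells (adjusted p = 1.39e-06 and 0.000958).

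Transcription factors of the AP-1, ETS, RUNX and C/EBP families, which bind many MMP promoters, went both ways. Of 15 such genes 6 fell and 5 rose in beta-catenin cells (median 0.01), and 3 fell and 7 rose in ICAT cells (median 0.14), beside 26.9 percent of all genes called in the first line and 28.6 percent in the second. Etv5 fell 7.2-fold with beta-catenin (adjusted p = 1.99e-09) and rose 1.27-fold in ICAT cells (adjusted p = 0.0306). The AP-1 gene Fosl1 fell 2.88-fold and 1.46-fold (adjusted p = 8.9e-08 and 0.000638), and Etv4 fell 2.14-fold in beta-catenin cells. Jun, named after its values were seen, fell 2.06-fold with beta-catenin (adjusted p = 2.68e-06) and averaged 11.62 in control and 11.57 in ICAT cells. The AP-1 genes Junb and Fosl2 rose in both lines, by 2.04-fold and 1.92-fold in beta-catenin cells and by 1.29-fold and 1.51-fold in ICAT cells. Cebpd and Cebpb rose 2.09-fold and 1.97-fold in ICAT cells. In beta-catenin cells Cebpb rose 1.47-fold and Cebpd was not called. Whether any of these bears on the MMP genes was not tested.

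**Figure D4:**
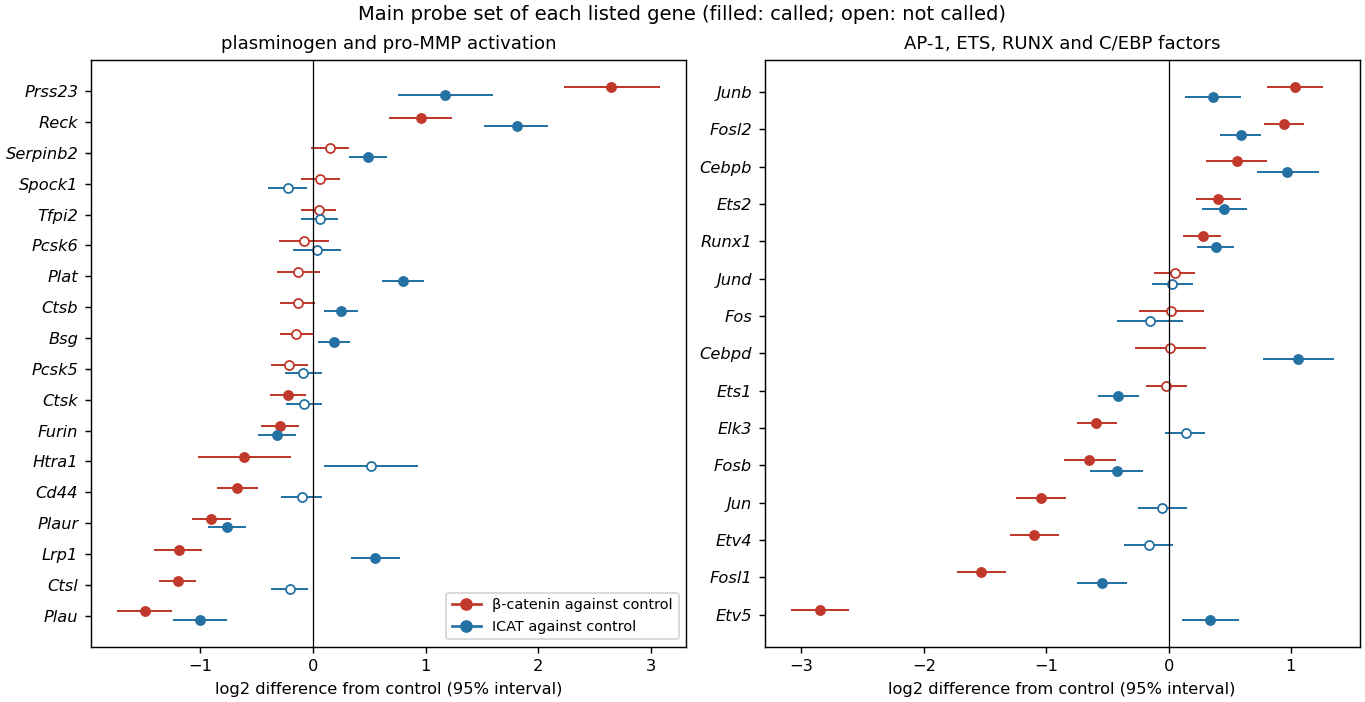
Log2 difference from control with 95% intervals, main probe sets, red beta-catenin and blue ICAT cells, filled points called. The left panel shows the broad list for plasminogen activation, proenzyme activation and MMP control. The right panel shows AP-1, ETS, RUNX and C/EBP factors. Etv5 at -2.85 and Plau at -1.49 are the lowest red points of their lists, and Prss23 at 2.65 and Junb at 1.03 the highest.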

How the data were processed

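RNA from 9 cultures was hybridised to Affymetrix expression arrays after 3′ IVT labelling, per the labels' protocols. The authors deposited log2 values; the submitters' processing notes name RMA and affy, and the version of affy is not given in the sources used here. RMA makes array distributions alike, so a shift of all genes would not be seen, and it compresses differences of dim probe sets. The number of arrays limits the precision.

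Probe sets were named by the platform annotation, updated through Entrez identifiers: 34945 had 1 symbol, 932 several and 9160 none, and 204 kept their older symbol. All 45037 probe sets on 9 arrays were fitted with group means with limma 3.58.1 in R 4.3.3, without a filter, so every member probe set has a test. Tests were two-sided with Benjamini-Hochberg adjustment within each of 3 comparisons. An exact permutation test of 3 against 3 cannot give p under 0.1. No arrays were identical. For folds, values under log2 5 in a group with a mean under 5 were set to 5 ("at least"). Members, lists and the rule for naming listed genes (the largest increase and the 3 largest differences called per list and line) were chosen with earlier results of these data known. The limma script was tested on simulated data. Some genes of the lists, among them Mmp15, Mmp21, Mmp25, Mmp27 and Mmp28, were not analysed here. Protein sequences were not used here. Alternatives were filters, 1 probe set per gene, only the arrays compared, array weights, a trended robust prior, other scalings, a replicate block and leaving out each array.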

Additional observations from a re-analysis of the deposited data

How the results depend on the processing

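The calls of Mmp2, Mmp3, Mmp9, Mmp10, Mmp11 and Mmp13 in beta-catenin cells, of Mmp2, Mmp13, Timp1 and Timp3 in ICAT cells and of Timp1 and Timp3 in beta-catenin cells held under all alternatives run on them. With each array left out in turn, member calls ran from 17 to 19 in beta-catenin cells, from 14 to 16 in ICAT cells and from 8 to 14 between the lines. Over all probe sets the ranges were 7796 to 11389, 8051 to 11074 and 9459 to 12944. With 1 probe set per gene, which fits fewer features by construction, 10, 6 and 9 members and 5321, 5670 and 6155 genes were called in that order. With only the arrays compared, 8 member probe sets were called between the lines. A filter of log2 7 raised the share of all features called in beta-catenin cells from 22.1 to 48.2 percent. The dim Timp2 probe set changed sign in ICAT cells, from 0 to 0.06 at most, with array weights (0), the mean of bright probe sets subtracted (0.02) and 4 left-out arrays (-0.09 to 0.06 over all 9). Mmp3 was called in ICAT cells with array weights (0.78, adjusted p = 0.0265).

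The labels do not say that a replicate number marks a shared day or culture, and the values did not settle it. Correlations of same-numbered deviations ran from -0.0963 to 0.317, with 3 of 9 over 0.1. The highest was between replicate 3 of the beta-catenin and ICAT groups. The own number was best in 12 of 18 cases. With a replicate block 19, 15 and 14 member probe sets were called, as without it. Between the lines 1 Mmp14 call was lost (adjusted p = 0.0558) and 1 Timp3 call gained (0.0475); it changed no other member call.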
